A study of Homo sapiens with 7 samples.

Results

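The SHANK genes, SHANK1, SHANK2 and SHANK3, were described by the CTCF peaks that overlapped each gene or lay within 20 kb of it, in the peak list of control K562 cells and in that of K562 cells treated with pyridostatin (PDS). Of 33094 control peaks 20 met this rule, and of 32917 PDS peaks 18 did. The genes are 3 of 20162 protein-coding genes in the GENCODE annotation of GRCh37, the build called hg19 in the lists. K562 cells are a human line established from a leukaemia, and PDS is a small molecule that binds and stabilises G-quadruplexes (G4s), the four-stranded structures that G-rich DNA can fold into. Chromatin immunoprecipitation with an antibody against CTCF was followed by sequencing, with a nonspecific IgG as the background. Untreated cells gave 2 CTCF samples and 1 IgG sample, and cells kept with 10 μM PDS for 24 h gave 2 of each, 7 samples in all by the labels. The paper also shows another IgG sample of untreated cells, and it is not known if that sample entered the control folds. The authors called peaks once per condition, jointly on both CTCF samples, so each condition has 1 list. No list gives a value per sample, an SD or the depth, and a peak that is missing from a list is only a peak that was not called there. The comparisons are therefore descriptions without a test, and the Wilson intervals beside shares reflect the counting error alone.

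SHANK proteins are large scaffolds of the postsynaptic density, the protein mesh under excitatory synapses. Their ankyrin repeats, SH3 domain, PDZ domain, proline-rich stretch and SAM domain join receptor complexes, through the DLGAP and DLG proteins, to HOMER proteins, cortactin and the actin cytoskeleton. Mutations of the family are linked to autism, and loss of SHANK3 to Phelan-McDermid syndrome. K562 cells are not neurons, and expression of the genes was not measured here. CTCF is a zinc finger protein that binds DNA at a long, partly degenerate motif and, together with cohesin, sets the borders of chromatin loops.

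All 3 genes held peaks in both lists, and none had a peak within 1 kb of its annotated start. In the whole annotation 77.2% of protein-coding genes had at least 1 peak in the gene or within 20 kb in the control and 73.6% in the PDS list. A peak within 1 kb of the gene start was found for 22.2% (control) and 20.9% (PDS) of them. At the other end of the genes the picture differed. Each SHANK gene had a peak within 1 kb of its annotated end in both lists, a position that held a control peak in 8.21%, a PDS peak in 8.3% and peaks of both lists in 7.26% of protein-coding genes. The distance from the gene end to the nearest peak was 92 bp in the control list and 62 bp in the PDS list for SHANK1, 0 bp in both lists for SHANK2, and 700 and 540 bp for SHANK3. A peak at the end in both lists with none at the start in either list was found for 975 protein-coding genes (4.84%). This gene-end comparison was made after the positions of the SHANK peaks had been seen, and with 3 genes it is a description of these genes alone. Within 500 bp of the end the control list held a peak for 2 SHANK genes, beside 5.29% of protein-coding genes, and the PDS list for 2, beside 5.55%.

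**Figure D1:**
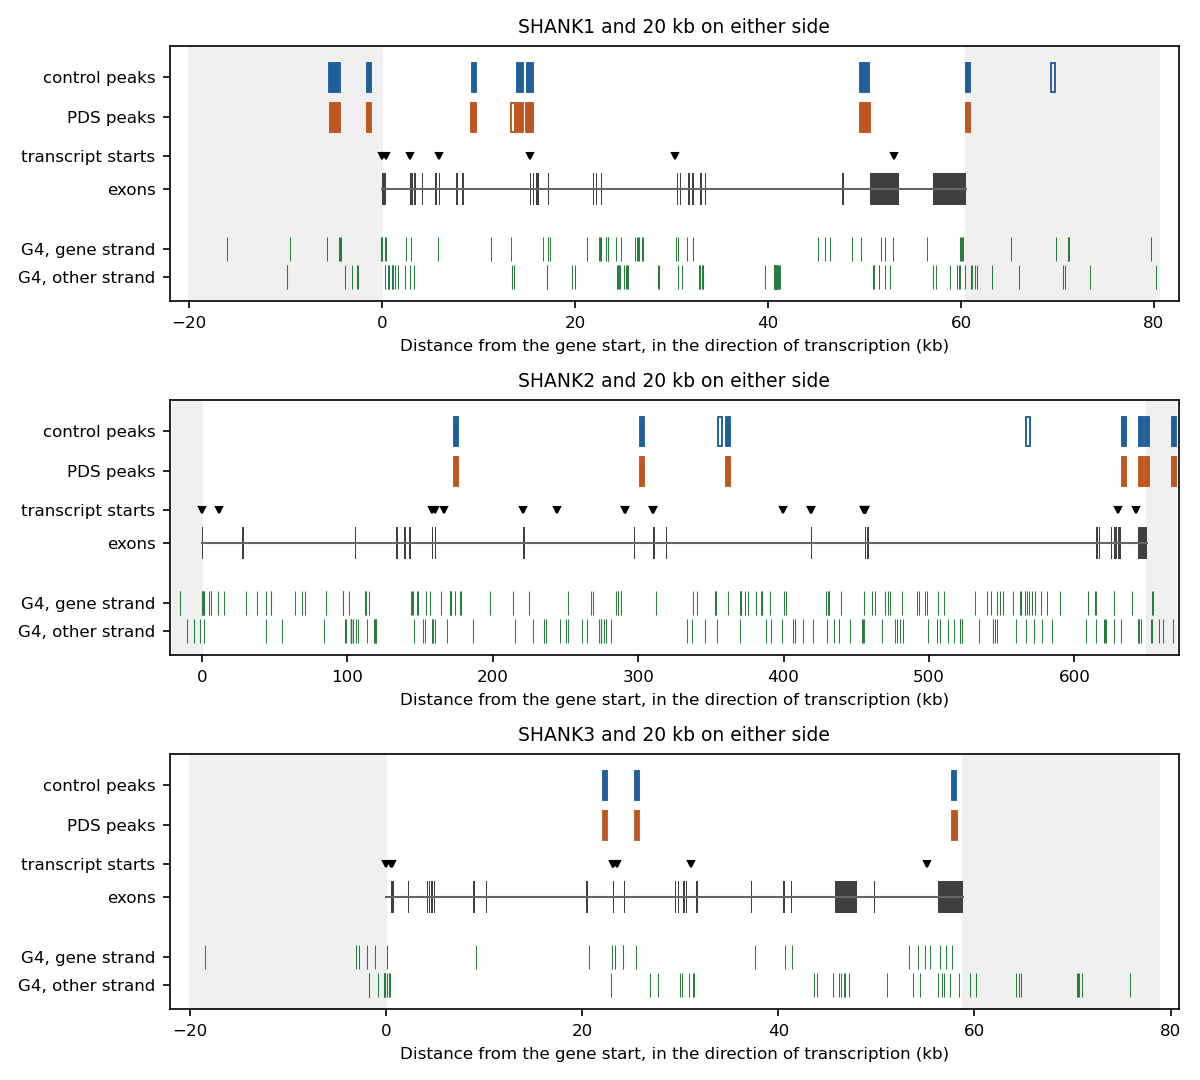
Maps of the 3 genes in the direction of transcription, with the distance from the gene start in kb on the horizontal axis and the 20 kb flanks shaded; filled boxes are peaks present in both lists, open boxes peaks of 1 list, black blocks exons, triangles transcript starts and green ticks G4 motifs on either strand. Narrow peaks are drawn at a minimum width so that they can be seen. No box lies at a gene start, and each gene has a box in both lists at its end.

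The sequences that the peaks hold are shown here because the comparison of the lists turns on G4s and on CTCF motifs. The G4 search, on both strands, asked for at least 3 G in each of 4 runs, with 1 to 7 nt in every loop, and a peak held a motif if it overlapped it by at least 1 bp. Of the 20 control peaks 5 held a G4 motif (25.0%, Wilson 95% interval 11.2 to 46.9%), and of the 18 PDS peaks 6 did (33.3%, 16.3 to 56.3%). The shares over the whole lists were 16.0% and 17.1%, inside both intervals. Capitals mark the G runs, and each sequence is read 5′ to 3′ on the strand that carries the G runs (GRCh37). The first lies in intron 22 of SHANK1, the next pair in the peak over CLEC11A upstream of SHANK1, and the others downstream of SHANK2 and in intron 11 of SHANK3. The motifs in the last exon of SHANK2 and in the SHANK1 peak found in the PDS list alone are not shown.
chr19:51173436-51173456, minus strand: GGGGaGGGaccgtGGGctGGG
chr19:51227459-51227487, minus strand: GGGGctcctaGGGGtgtGGGGGctctGGG
chr19:51227568-51227593, minus strand: GGGatctaGGGctcctgaGGGcGGGG
chr11:70295445-70295470, plus strand: GGGGctGGGagaagaaGGGagtGGGG
chr22:51138339-51138365, plus strand: GGGtggataGGGcaGGGtccagatGGG

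The ChIP-exo consensus of CTCF was matched in 3 SHANK peaks of each list, 1 at SHANK1 and 2 at SHANK2, all of them shared between the lists. Over the whole lists it was matched in 17.3% of control peaks and 14.4% of PDS peaks. The matches are shown because these peaks carry a recognisable CTCF motif. Capitals mark the 15 matched bases, with 10 bp of genome on either side, in intron 22 of SHANK1 and in introns 12 and 10 of SHANK2.
chr19:51172803-51172817, plus strand: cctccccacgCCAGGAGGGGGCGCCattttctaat
chr11:70601798-70601812, minus strand: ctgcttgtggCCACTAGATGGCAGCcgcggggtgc
chr11:70661160-70661174, plus strand: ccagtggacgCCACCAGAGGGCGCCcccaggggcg

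Another measure was added after these values had been seen. It was the largest number of bases that any 15-base stretch of a peak shared with a published 15-base core sequence of CTCF. The SHANK peaks reached 9 to 13 of 15 bases in each list, with a median of 11, beside a median of 10 over either whole list. At least 12 bases were reached by 5 SHANK peaks in each list, beside 21.7% of all control peaks and 20.1% of all PDS peaks. Wider peaks offer more stretches to match. The intron 12 peak of SHANK2 that held a consensus match reached 10 bases, at another site. A low number therefore does not mean that a peak lacks a CTCF motif. The closest matches, with 13 bases, lay in the intron 22 peak of SHANK1 and in the peak at the end of SHANK3.

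SHANK1 (ENSG00000161681.17_14) spans 60548 bp on the minus strand, chr19:51162512-51223059. It was the most densely occupied of the 3 genes, with 8 control peaks and 8 PDS peaks, that is, 7.96 peaks per 100 kb of gene and flanks in either list. This density stood at percentile 92.9 of protein-coding genes with the control peaks and at 90.4 with the PDS peaks. Peaks covered 3.86% of the gene body in the control and 4.54% in the PDS list. Of the 8 peaks 4 lay in the gene in the control and 5 in the PDS list. SHANK3, of nearly the same length, had 3 in the gene in each list, so that most of the difference in density between them came from the flanks of SHANK1. The remaining SHANK1 peaks lay in its flanks, 2 of them upstream in each list, 2 downstream in the control list and 1 downstream in the PDS list.

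The widest SHANK peak of the control list lay upstream of SHANK1, centred 4971 bp before its start (chr19:51227461-51228600), and its PDS counterpart was centred 4916 bp before it (chr19:51227451-51228500). It covered exons of CLEC11A, the gene of a secreted growth factor of blood cells, and began within 1 kb of the start of that gene. Its fold over IgG was 63.8 in the control list, rank 1726 of the list, and 23.1 in the PDS list, rank 7563. By p-value it stood at percentile 95.2 of the control list and 98.1 of the PDS list, where 100 is the strongest peak, and no other SHANK peak stood higher by p-value in either list. It overlapped 2 G4 motifs, of which 1 crossed the edge of the control peak, and had a G+C content of 70.8% and 70.9%. The peak closest to the SHANK1 start was a weaker one, 1222 bp away in the control list (fold 17.3) and 1292 bp away in the PDS list (fold 6.81).

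Within SHANK1 the strongest peak by fold lay in intron 22. It spanned 900 bp with a fold of 56.3 in the control list (chr19:51172621-51173520), and 1050 bp with a fold of 21.8 in the PDS list (chr19:51172451-51173500), where its edge reached the coding part of exon 23. It held both a G4 motif and a consensus match. A group of peaks lay around exon 9, and the first of them touched its coding sequence in both lists. This peak (control chr19:51207421-51208020, PDS chr19:51207451-51208200) was centred 43 bp after the start of a shorter SHANK1 transcript in the control list and 62 bp before it in the PDS list, and had a fold of 28.1 and 17.2. Its neighbour in intron 8 (control chr19:51208441-51209100, PDS chr19:51208501-51209250) had a fold of 29.3 and 15.1. Another peak in intron 8 (control chr19:51213481-51213660, PDS chr19:51213551-51213650) was weak in both lists, with a fold of 11.4 at percentile 10.1 and 5.41 at percentile 0.884.

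SHANK1 and C19orf81 are transcribed towards each other, and their 3′ ends meet. The shared peak there (control chr19:51162181-51162420, PDS chr19:51162201-51162450) overlapped an exon of C19orf81 and had the highest G+C content of all SHANK peaks, 74.2% and 76.4%. Its ratio of observed to expected CpG was 0.98 and 0.99, beside a median of 0.284 in either whole list. By fold it stood at percentile 57.2 of the control list and 2.38 of the PDS list, and by p-value at 35.0 and 69.1. The ranks by fold and by p-value thus moved in opposite directions at this peak.

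SHANK1 also had a peak of its own in each list. The control list alone held a peak of 180 bp (chr19:51153421-51153600) in C19orf81, within 1 kb of the start of that gene, with a fold of 25.8 and rank 17366. No PDS peak lay within 8601 bp of it, and the nearest G4 motif was 208 bp away. Its best match to the CTCF core was 11 of 15 bases, a number that 48.5% of control peaks reached. The PDS list alone held a peak of 100 bp in intron 8 of SHANK1, with a fold of 16.8 and rank 16279. It was the narrowest kind of peak that the PDS list contains, it stood at percentile 9.19 by p-value, and it lay beside the group of peaks around exon 9, 401 bp from the nearest control peak. This was the only SHANK peak that was missing from the control list, and it held a G4 motif on the strand opposite to the gene. Its best match to the CTCF core was 9 of 15 bases, a number that 91.5% of PDS peaks of any width reached. These peaks of 1 list alone were narrower than the list medians of 360 bp (control) and 300 bp (PDS). Narrow peaks offer fewer stretches to match.

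SHANK2 (ENSG00000162105.21_16), the longest of the family, spans 649665 bp on the minus strand, chr11:70313959-70963623. It had 9 control peaks and 7 PDS peaks, of which 8 and 6 lay in the gene. Per 100 kb of gene and flanks these were 1.30 and 1.01 peaks, at percentile 36.2 and 34.9 of protein-coding genes, although by number alone the gene stood at percentile 98.8 and 94.8. The first peak inside the gene lay 174753 bp from the start in the control list and 174773 bp in the PDS list, in intron 8 (control chr11:70788781-70788960, PDS chr11:70788801-70788900), with a fold of 29.7 and 23.0. The nearest peak to the start in any direction lay outside the gene, 91018 bp upstream in the control list and 91028 bp in the PDS list.

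A group of 3 SHANK2 peaks in each list lay near its 3′ end. They were the peak across the gene end (control chr11:70313581-70314180, PDS chr11:70313251-70314000), a second peak in the untranslated part of the last exon (control chr11:70317361-70317660, PDS chr11:70317401-70317650) and a peak in intron 23 (control chr11:70329241-70329420, PDS chr11:70329151-70329350). The last exon peaks ranked low by fold in the control list, with 22.8 (percentile 37.1) and 20.4 (percentile 30.2), and high in the PDS list, with 22.1 (percentile 74.2) and 30.1 (percentile 91.0). The intron 23 peak went the other way, from a fold of 44.4 at percentile 83.8 in the control list to 7.71 at percentile 5.78 in the PDS list. Of all 24633 peaks paired between the lists, 0.5% differed by as much in percentile as the intron 23 peak and 5.5% by as much as the second last exon peak. By p-value all 3 peaks stood lower in the PDS list. The second last exon peak held a G4 motif and the others did not.

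Downstream of SHANK2, 18619 bp past the gene end in the control list and 18609 bp in the PDS list, lay a shared peak with a G4 motif (control chr11:70295161-70295520, PDS chr11:70295101-70295600), with a fold of 46.4 and 24.4. In the middle of the gene, the peaks in intron 12 (control chr11:70601581-70602000, PDS chr11:70601601-70602050) and intron 10 (control chr11:70660981-70661520, PDS chr11:70661101-70661500) held the consensus matches. The intron 12 peak had a fold of 32.9 in the control and 23.4 in the PDS list, and a G4 motif lay 7 bp and 27 bp outside its edge. The intron 10 peak had a fold of 35.3 and 14.7, with no G4 motif within 9624 bp.

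The control list alone held a pair of peaks in SHANK2, both without a G4 motif. The first, of 120 bp in intron 15 (chr11:70395181-70395300), the narrowest width in that list, had a fold of 19.8, and no PDS peak lay within 65831 bp. The second, of 180 bp in intron 12 (chr11:70607401-70607580), had a fold of 10.5, rank 30252, and lay 5351 bp from the nearest PDS peak. Both stood low by p-value, at percentile 21.9 and 12.3 of the control list. Their best CTCF core matches were 11 and 10 of 15 bases, numbers that 48.5% and 77.5% of control peaks of any width reached. They are printed on the plus strand to show what peaks of the control list alone contain. No base is in capitals because neither the G4 search nor the consensus search matched. The SHANK1 peak found in the control list alone is not printed.
chr11:70395181-70395300: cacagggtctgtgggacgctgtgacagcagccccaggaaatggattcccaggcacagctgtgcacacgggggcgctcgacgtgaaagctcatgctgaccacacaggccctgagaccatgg
chr11:70607401-70607580: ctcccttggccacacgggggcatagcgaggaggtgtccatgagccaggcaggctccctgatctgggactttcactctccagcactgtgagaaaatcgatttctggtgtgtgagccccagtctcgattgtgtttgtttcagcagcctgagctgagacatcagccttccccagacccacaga

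SHANK3 (ENSG00000251322.11_10) spans 58798 bp on the plus strand, chr22:51112843-51171640, about as much as SHANK1, and had 3 peaks in each list, all inside the gene and all shared. Its density of 3.04 peaks per 100 kb stood at percentile 63.9 in the control and 63.8 in the PDS list. GENCODE marks the gene as lying over an error of the reference genome, which bears on its sequence and its transcript models. The peak nearest to its start lay 22218 bp away in the control list and 22208 bp in the PDS list.

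The strongest SHANK peak by fold in the control list was the one in the last exon of SHANK3, in its untranslated part, 850 bp before the gene end (chr22:51170641-51170940), with a fold of 66.5 and rank 1448. In the PDS list it was wider, 500 bp rather than 300 bp (chr22:51170601-51171100), and its fold of 16.8 gave rank 16415. The percentile by fold was thus 95.6 in the control and 50.1 in the PDS list, while the percentile by p-value was 66.0 and 82.1. A G4 motif lay 118 bp from the control peak and 78 bp from the PDS peak. The peak in intron 11 (control chr22:51138301-51138540, PDS chr22:51138301-51138600) held the G4 motif printed above and had nearly the same percentile by fold in both lists, 65.3 and 65.1, at a fold of 32.2 and 19.7. The peak in intron 9 (control chr22:51135061-51135360, PDS chr22:51135051-51135400), with a fold of 24.7 and 17.3, was centred 782 bp and 767 bp before the start of a shorter SHANK3 transcript.

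In all, 17 of 20 control peaks (85.0%, Wilson 95% interval 64.0 to 94.8%) and 17 of 18 PDS peaks (94.4%, 74.2 to 99.0%) overlapped a peak of the other list by at least 1 bp. The whole lists gave 78.0% and 78.6%, inside both intervals. The shared peaks formed 17 pairs. Their centres differed by a median of 50 bp, beside 40 bp over all pairs, and the overlap took a mean of 93.3% of the narrower peak. The PDS peak was the wider in 11 pairs and the control peak in 6, whereas over the whole lists the PDS peak was wider in 49.6% of pairs. Positions step by 60 bp in the control list and by 50 bp in the PDS list, which limits the precision of these figures.

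Ranks were compared because each fold is relative to the IgG of its own condition and the levels of fold cannot be set against each other. In 5 of the 17 pairs the percentile by fold was higher in the PDS list, namely in 4 of 7 at SHANK2, in 1 of 3 at SHANK3 and in 0 of 7 at SHANK1. Over all pairs of the lists 51.4% were higher. By p-value the percentile was higher in the PDS list in 11 of 17 pairs (64.7%), beside 56.3% of all pairs. In 12 of the 17 pairs (70.6%) the ranks by fold and by p-value moved in opposite directions, beside 62.2% of all pairs. The median size of the shift was 18.5 percentile points by fold and 12.7 by p-value, beside 19.7 and 10.8 over all pairs. No direction of a change in CTCF occupancy follows from these ranks.

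**Figure D2:**
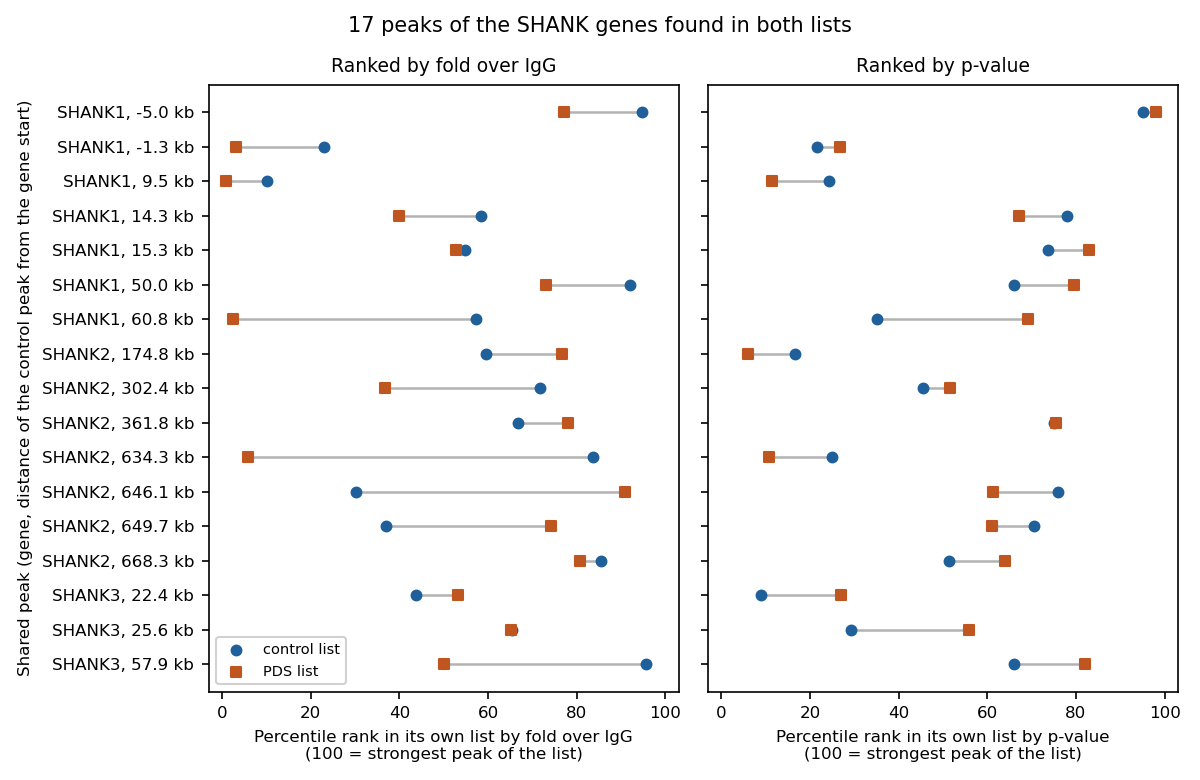
Percentile rank of the 17 shared SHANK peaks in the control list (circles) and the PDS list (squares), by fold over IgG on the left and by p-value on the right, in gene order. The longest line on the left belongs to the intron 23 peak of SHANK2, 83.8 in the control and 5.78 in the PDS list; the longest on the right belongs to the peak past the SHANK1 end, 35.0 and 69.1.

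By position, 4 of the 20 control peaks overlapped an exon of their gene, 11 lay in introns, 2 upstream and 3 downstream. Of the 18 PDS peaks 5 were exonic, 9 intronic, 2 upstream and 2 downstream. Among all peaks that lay in protein-coding genes, 38.0% of control peaks and 38.7% of PDS peaks overlapped an exon. Of the peaks inside the SHANK genes, 4 of 15 in the control list and 5 of 14 in the PDS list did. Counting only peaks inside the genes would leave these 15 and 14 of the 20 and 18, whereas a limit of 50 kb would give 20 in each list. The last peak inside 20 kb was the one downstream of SHANK2, whose edge lay 18439 bp from the gene in the control list (fold 46.4). The first outside it were a PDS peak 26812 bp from SHANK1, with a fold of 6.21 and rank 32270, and a PDS peak 32343 bp from SHANK3, with a fold of 8.51 and rank 30050. No control peak lay between 20 kb and 50 kb from any of the genes.

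**Figure D3:**
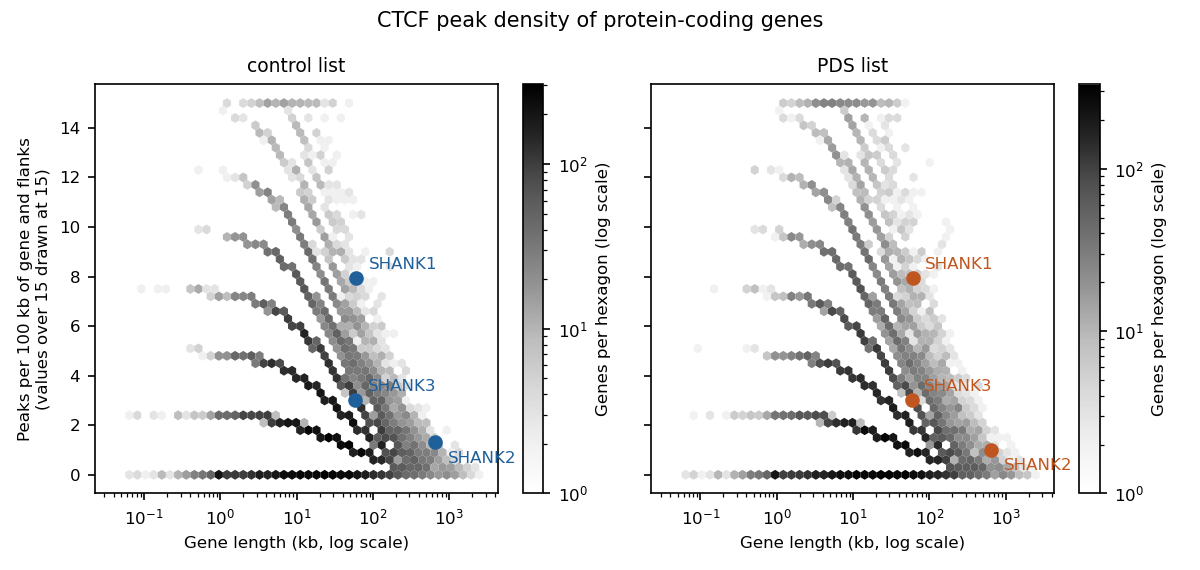
Peaks per 100 kb of gene and flanks against gene length (log scale) for 20162 protein-coding genes, with the control list on the left and the PDS list on the right; grey hexagons count genes on a log scale. SHANK1, at 7.96 in both lists, stands above SHANK3, at 3.04, which has nearly the same length, and SHANK2 lies lowest, at 1.30 and 1.01. Inside the genes alone SHANK1 had 4 control and 5 PDS peaks and SHANK3 had 3 and 3.

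The genes also differed in their own G4 motifs. SHANK1 held 113, that is, 1.87 motifs per kb of gene body, at percentile 97.7 of protein-coding genes. SHANK3 held 46, or 0.782 per kb (percentile 86.6), and SHANK2 held 234, or 0.36 per kb (percentile 71.4). The median protein-coding gene had 0.139 per kb. The G+C content followed another order, with 57.1% in SHANK3, 56.4% in SHANK1 and 51.6% in SHANK2. SHANK1 had 69 motifs on the strand opposite to the gene and 44 on its own (61.1% opposite), SHANK3 had 28 and 18 (60.9%), and SHANK2 had 117 on each, beside 50.2% opposite over all protein-coding genes. All 14 motifs in the densest 1 kb of SHANK1 lay on the opposite strand, and without them its share was 55.6%. The same held for all 17 motifs in the densest 1 kb of SHANK2, whose share without them was 46.1%. For SHANK3 the share without its densest 1 kb was 58.5%. Exons held 43.5% of the motifs of SHANK3, 23.9% of those of SHANK1 and 4.27% of those of SHANK2, where they make up 24.3%, 17.3% and 2.88% of the gene.

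**Figure D4:**
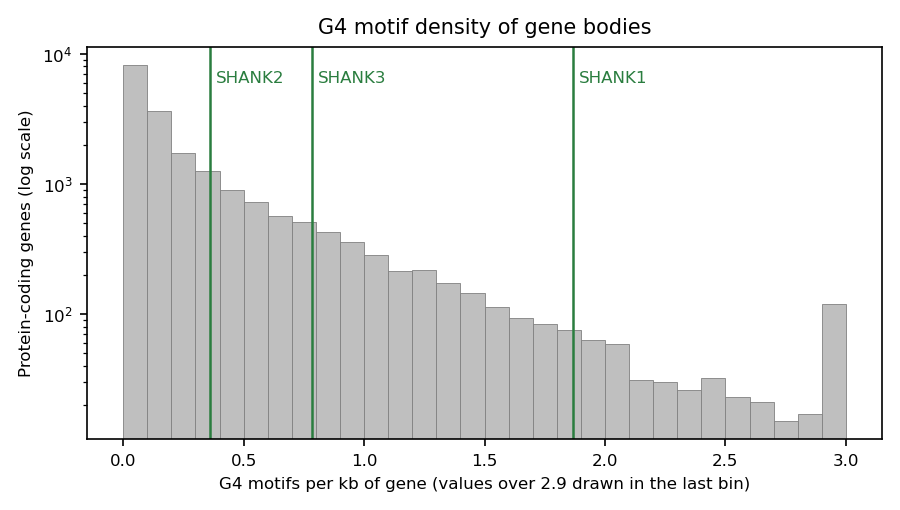
Number of protein-coding genes (log scale) by G4 motifs per kb of gene body, with the SHANK genes as green lines. SHANK1, at 1.87 per kb, lies in the upper tail, SHANK3 lies at 0.782 and SHANK2 at 0.36 per kb.

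Few of these motifs lay in a CTCF peak. In SHANK1 a peak of the control list covered 1 of the 113 motifs (0.885%) and PDS peaks covered 2 (1.77%). SHANK2 had 1 of 234 in a peak in each list (0.427%) and SHANK3 1 of 46 (2.17%). Over all protein-coding genes 2.12% of motifs lay in a control peak and 2.25% in a PDS peak. The stretches of 1 kb with the most motifs lay apart from the peaks, which is the usual case for a stretch of this size, since peaks covered at most 4.54% of any of the genes. In SHANK1 this stretch lay 40000 to 41000 bp from the start, with 14 motifs and the nearest control peak 8540 bp away. In SHANK2 it lay 102000 to 103000 bp from the start, with 17 motifs and the nearest control peak 71664 bp away. In SHANK3 it was the first 1000 bp of the gene, with 5 motifs, a G+C content of 79.5%, an observed to expected CpG ratio of 0.836 and the nearest control peak 21219 bp away. Seen from the peaks, 9 of the 15 control peaks without a motif had one within 1 kb, and so did 6 of the 12 PDS peaks without one. Among all peaks without a motif these shares were 33.1% and 35.8%.

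The SHANK peaks had a median G+C content of 58.4% in the control and 57.3% in the PDS list, beside 51.0% and 53.0% over the whole lists. They ranged from 35.3%, in the control peak across the SHANK2 end, to 76.4%. The observed to expected CpG ratio had a median of 0.321 and 0.315, close to the 0.284 of either whole list. Of the peaks with a G4 motif, the one over CLEC11A was the richest in CpG, with a ratio of 0.75 and 0.70.

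**Figure D5:**
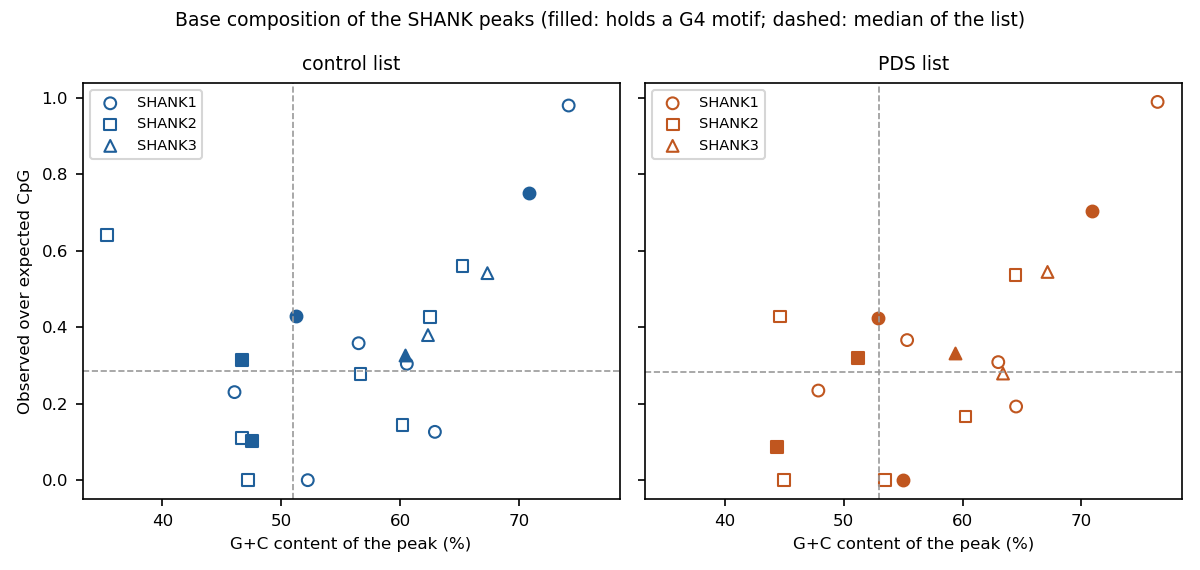
G+C content of each SHANK peak in percent against its observed to expected CpG ratio, in the control list on the left and the PDS list on the right; filled symbols hold a G4 motif and dashed lines mark the medians of the whole list. The point at the top right of both panels is the peak past the SHANK1 end, at 74.2% and 76.4%.

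A list of 32 genes was taken from proteins that bind SHANK proteins or belong to the synaptic complexes they are linked to, called partners here, among them the DLGAP and DLG scaffolds, the HOMER proteins, glutamate receptors, neuroligins and neurexins, and linkers to actin. Of these, 29 (90.6%) had a peak in the gene or within 20 kb in each list, beside 77.2% (control) and 73.6% (PDS) of all protein-coding genes. Their median was 3 peaks in the control and 2.5 in the PDS list, beside 2 and 2 over all protein-coding genes, and they are longer, with a median of 129262 bp beside 27220 bp. Per 100 kb they had a median of 1.47 and 1.40 peaks, beside 2.06 and 1.95 over all protein-coding genes. A peak within 1 kb of the gene start was found for 7 partners (21.9%) in the control and 6 (18.8%) in the PDS list, near the 22.2% and 20.9% of all protein-coding genes. At the gene end 2 partners (6.25%) had one in both lists, DLGAP3 and DLG4, the gene of PSD-95, near the 7.26% of all protein-coding genes. The G4 motif density of the partners had a median of 0.213 per kb.

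Among the partners, the most peaks in the control list were found at DLGAP1, with 17 in the control and 15 in the PDS list. The DLGAP1 gene is long, with 959278 bp. NRXN2, a presynaptic adhesion gene, had 9 and 11. DLGAP3, of the same scaffold family as DLGAP1, had 8 and 5. DLG2, a relative of PSD-95 with a gene of 2173325 bp, had 7 and 2.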

How the data were processed

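CTCF ChIP-seq of untreated and PDS-treated K562 cells gave 2 deposited peak lists. The authors aligned the reads to hg19 with Bowtie2 2.2.3, filtered out duplicates and reads mapped poorly or to several places, and ran PePr once per condition over IgG. Bowtie2, SAMtools and deepTools 2.0 are named in the submitters' processing notes. The score of each peak, deposited by the authors, was proportional to the fold and was not used further. The fold over IgG, a ratio computed by the authors, ranked peaks within a list. The p-value and q-value were deposited as the authors' caller gave them, and the p-value gave the other ranking. The largest p-value in either list was 1e-05, stricter than the cutoff in the methods, and the narrowest control peak, of 120 bp, was wider than the window stated there, whereas the narrowest PDS peak, of 100 bp, was not. The settings behind the lists are therefore uncertain, and with them which peaks were called, their widths and ranks. Depth and values per sample are unknown, and 0 further columns of samples were left out. No peak passed the end of a GRCh37 chromosome.

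Genes, exons and canonical transcripts were taken from GENCODE for GRCh37. Peaks overlapping by at least 1 bp were shared, and pairs were one-to-one overlaps. A SHANK peak was exonic if it touched any exon of its gene. Exon and intron numbers are those of the canonical transcript. Motif search, overlap and positions were tested on simulated data, and all 200 planted motifs, 500 planted overlaps and 10 planted positions were recovered. The SHANK genes, the partner list and the measures were chosen with earlier results of these data known. Named were every SHANK peak, genes that such a peak overlaps or lies within 1 kb of the start of, and the 4 partners with most control peaks (DLG2 tied with DLGAP4 and came first by name). Some items that this rule takes in are not reported here. Alternatives covered the window, stringency, overlap, ranking and motif. Tools were samtools 1.23.1, matplotlib 3.10.9, pyfaidx 0.9.0.4, scipy 1.17.1, pandas 2.3.3 and numpy 2.4.6 under Python 3.11.15.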

Additional observations from a re-analysis of the deposited data

How the results depend on the processing

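Of 89 alternative values, 65 stayed within 1.5 times the reported ones, a wide margin for small counts, 24 moved and 0 reversed. Median percentiles were held to a stricter margin and are given as moved. In the better 50% of each list by p-value, 9 of the 20 control peaks remained and 9 were shared in each list, out of 12 remaining PDS peaks. Counting only the gene itself left 4 control and 5 PDS peaks at SHANK1, beside 3 and 3 at SHANK3. By the base at the peak centre 3 control and 2 PDS peaks at the SHANK genes were exonic. The exonic shares over all genes given above count any overlapping base and cannot be set beside these. Ranking by p-value in place of fold moved the median percentile from 57.8 to 40.3 in the control list and from 53.0 to 61.2 in the PDS list. G4 motifs with runs of at least 2 G were found in 17 of the 20 control and 17 of the 18 PDS peaks at the SHANK genes. In the control list windows of 200 bp and 1000 bp at the peak centre gave 2 and 9 SHANK peaks with a motif. The shares over the whole lists under these motif rules are not given, so these counts show nothing particular to the SHANK peaks. With loops of up to 12 nt the density was 3.45 per kb in SHANK1, 0.76 in SHANK2 and 1.79 in SHANK3, and with runs of at least 2 G it was 13, 7.38 and 9.95, in the same order of genes. Alternatives added after the values were seen gave 2 SHANK genes with a control peak and 3 with a PDS peak at the gene end in the better 50% of each list by p-value (5.56% and 5.84% of protein-coding genes). No paired analysis was possible because the replicates of a condition were merged into 1 list by the peak caller. The labels give 1 IgG sample for the control list and 2 for the PDS list, so depth and background cannot be told apart from the condition.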
